A study of Mus musculus with 54 samples.

Results

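The cytosolic ribosome genes are the genes whose symbols begin with Rpl or Rps and go on with a protein number, together with Rplp0, Rplp1, Rplp2 and Rpsa, while the Rps6k kinases and Rps19bp1 were left out. By that rule 77 of 25697 probes were members, and they stood for 60 of 16593 named genes. Large-subunit proteins made up 45 of the probes (34 genes), small-subunit proteins 28 (23 genes) and proteins of the stalk of the large subunit 4 (3 genes). One probe represented 46 of the genes, 2 probes 12 genes, 3 probes Rpl37 and 4 probes Rpl23. Rpl11, Rps27a, Rpl10l and Rps4l were not analysed here.

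The study compared the exercise mimetic AICAR, an agonist of AMP-activated protein kinase, with wheel running in the brain of individually housed male C57BL/6J mice that were 1 month old at the start. Control mice (CTR) had daily intraperitoneal saline, AICAR mice (ACR) daily intraperitoneal AICAR at 500 mg/kg in saline, and runners (RUN) a wheel and daily saline. RNA came from 2 regions, the lateral entorhinal cortex (LEC) and the dentate gyrus of the hippocampus (DG), after 7, 14 or 28 days, with AICAR groups at 7 and 14 days only and no account of the 28-day groups in the study's methods. ACR7 and RUN7 shared their controls (CTR7), whereas day 14 had a control set for the runners (CTR14a) and another for AICAR (CTR14b). Each group had 3 arrays per tissue, except DG CTR14a with 2 and LEC CTR28 with 4, and 1 array held the RNA of 1 mouse. The 54 arrays, 26 of DG and 28 of LEC, came from 33 mice, of which 21 gave both tissues. The purest and most concentrated RNA samples of each group had been taken for the arrays. In bulk tissue, a change in RNA per cell and a change in the number of cells of a type cannot be told apart.

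Ribosomes translate mRNA into protein. The small subunit decodes the mRNA, the large subunit joins the amino acids, and the stalk of the large subunit recruits the elongation factors. Nearly all mRNAs of ribosomal proteins begin with a short run of pyrimidines, the TOP motif, through which the kinase complex mTORC1 controls their translation. AMP-activated protein kinase restrains mTORC1, and neurons need new protein for lasting synaptic change.

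Start regions are given for 6 of the genes that the results below turn on. Each reads 5′ to 3′ from 40 bases before to 20 bases after the first base of the RefSeq gene model (build GRCm38.p6). Capitals mark the longest unbroken run of C or T that touches the 20 bases on either side of that first base, and the first of equally long runs. In Rpl35, Rpl38, Rps27 and Rpl7a the run in capitals spans that first base. In Rps15 and Rps27l it lies wholly before that base, outside the mRNA of the gene model shown, and so shows no TOP motif. Rps27l has another run of 9 bases, 1 base after the one in capitals and also before the first base.
Rps15 (chr10:80292391-80292450, plus strand): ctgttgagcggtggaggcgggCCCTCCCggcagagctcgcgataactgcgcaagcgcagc
Rpl35 (chr2:39005112-39005171, minus strand): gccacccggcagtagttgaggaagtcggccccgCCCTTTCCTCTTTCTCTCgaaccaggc
Rpl38 (chr11:114668540-114668599, plus strand): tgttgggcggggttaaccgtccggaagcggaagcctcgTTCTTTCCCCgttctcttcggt
Rps27 (chr3:90213629-90213688, minus strand): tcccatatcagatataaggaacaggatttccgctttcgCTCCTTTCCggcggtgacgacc
Rps27l (chr9:66946046-66946105, plus strand): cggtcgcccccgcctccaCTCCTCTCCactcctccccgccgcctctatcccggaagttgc
Rpl7a (chr2:26910767-26910826, plus strand): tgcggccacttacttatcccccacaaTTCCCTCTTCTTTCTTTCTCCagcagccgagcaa
The run was 7 bases long in Rps15, 9 in Rps27 and Rps27l, 10 in the Rpl38 gene, 18 in Rpl35 and 21 in Rpl7a. Rps27l has 2 annotated starts, of which 1 is shown. A RefSeq start region was at hand for 51 of the 60 genes. A run of 8 or more C or T touched that stretch in 26 of 51 (51%), against 23.7% of all 27025 genes. In the wider window of 250 bases before to 50 after the start, the letters CTCTTTC, on either strand, were in 13 of the 51 (25.5%, against 9.28% of all genes). CCGGAAG, the core letters bound by ETS factors, were in 21 (41.2% against 9.93%), and AAGATGG, core letters of YY1, in 9 (17.6% against 7.28%). CTCTTTC on the gene strand within 20 bases of the start was in 6 (11.8% against 0.662%). CTCTTTC can lie inside a run of C and T. Parts of the other motifs, read on the opposite strand, can lie in such a run too, so the counts may share sequence. A match is a description of the sequence only.

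Levels below are log2 intensities after each array was brought to the same mean and standard deviation (SD). A difference on this scale is given as a log2 difference or a fold change of the scaled levels, not of the intensities before scaling. Its size depends on the SD by which each array was divided, above all for bright probes. Probes that all arrays of some group detected were tested, which covered 63 member probes (53 genes) among 12658 probes in DG and 62 (52 genes) among 12233 in LEC. Members that did not pass in DG were 1 probe each of Rpl27a, Rplp0, Rpl4, Rpl23 and Rpsa, 2 probes of Rpl37, and the only probes of Rpl14, Rpl3l, Rpl17, Rpl39l, Rpl6, Rplp2 and Rps23. In LEC the other Rpsa probe did not pass either. In each tissue 60 member probes were detected in every array. "Called" means an adjusted p under 0.05 from limma over all probes tested in a comparison.

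Between 11495 and 13219 probes were detected per DG array and between 11575 and 12229 per LEC array. Before scaling, the SD of an array's log2 intensities was 1.68 to 2.14 in DG, where ACR7 replicate 3 was highest, and 1.57 to 1.86 in LEC, where CTR28 replicate 3 was lowest. Markers matched the tissue labels, with a mean level of dentate granule neuron genes of 9.04 to 11.51 in DG and 6.60 to 7.97 in LEC, although the cortical neuron list overlapped between the tissues (8.40 to 8.81 and 8.13 to 8.98). Choroid plexus genes were high in 3 DG arrays, ACR7 replicate 2 (mean level 11.44), CTR14b replicate 5 (12.71) and ACR14 replicate 3 (11.38), against 6.66 to 8.80 in the others.

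**Figure D1:**
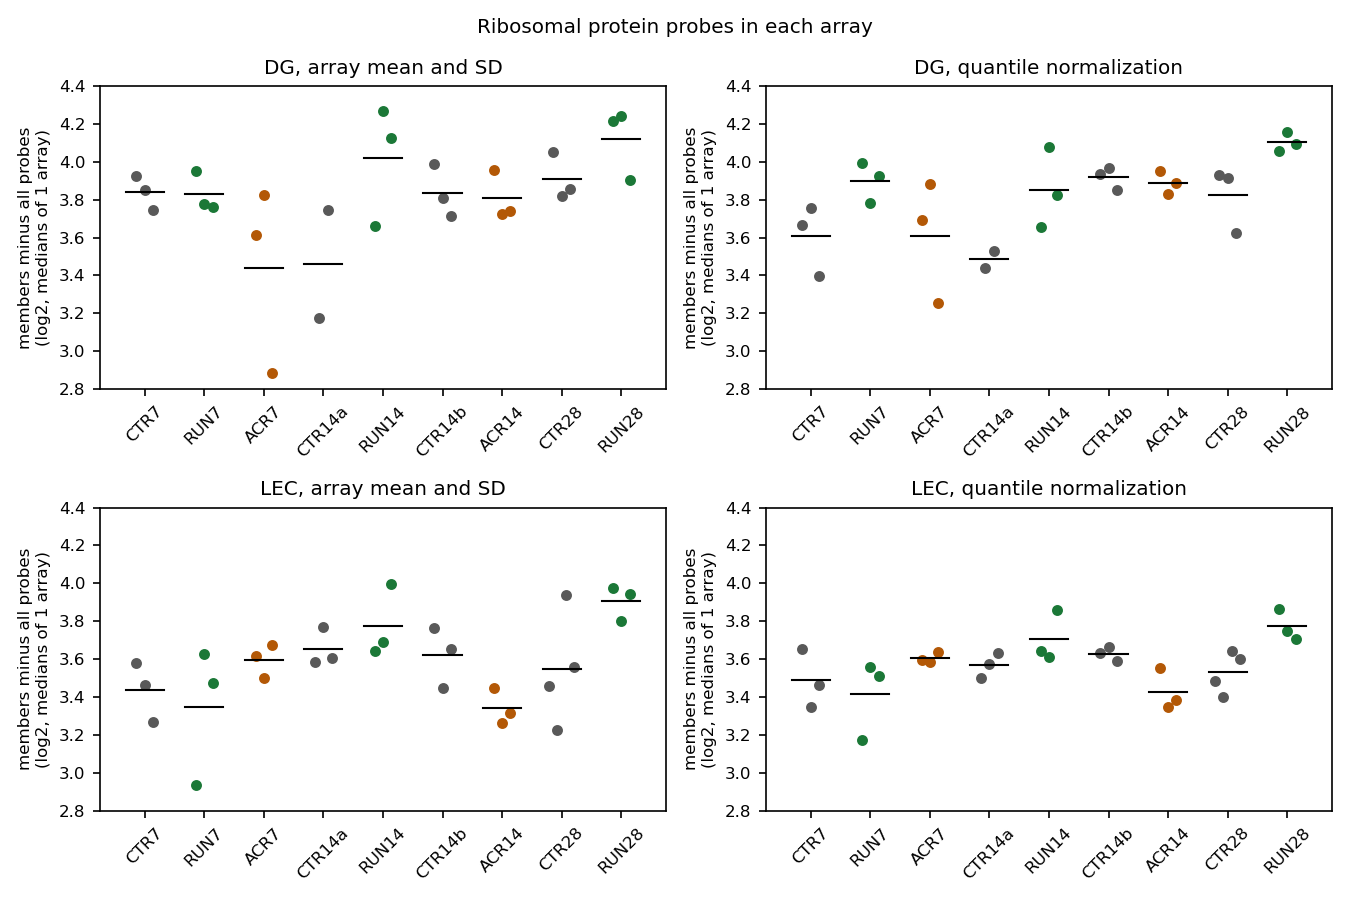
Median level of the ribosomal protein probes minus the median of all probes tested, 1 point per array and a bar at the group mean, on 2 scalings of the arrays. On the main scale DG ACR7 replicate 3 lies at 2.89 and the 3 LEC RUN28 arrays lie between 3.80 and 3.98.

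The clearest change in the ribosomal protein genes was in LEC after 28 days of running. There 21 of 62 member probes were higher in RUN28 than in CTR28 and 0 were lower, whereas 13.7% of all probes tested were called in either direction and 6.34% were called higher. Members lay above 0 in 59 of 62 cases. Their median difference was 0.32 on the log2 scale, against -0.01 for all probes. With 1 probe per gene, 19 of 52 member genes were higher, against 7.26% of 8545 genes. By subunit, 13 of 35 large-subunit probes, 8 of 25 small-subunit probes and 0 of 2 stalk probes were called, with median differences of 0.31, 0.33 and 0.12.

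Rps27l, a paralog of Rps27 that is also a target of p53, had the smallest p among the members. Its levels were 9.71, 9.68, 9.38 and 9.81 in the CTR28 arrays and 10.28, 10.31 and 10.49 in RUN28. All runners lay above all controls, with means of 9.64 ± 0.19 (SD, n = 4) and 10.36 ± 0.11 (n = 3). The log2 difference was 0.71 (standard error 0.15), or 1.64-fold (adjusted p = 0.00457).

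Rps15, a small-subunit protein near the decoding centre, stood at 11.25, 11.10, 11.41 and 11.42 in controls and at 11.80, 11.95 and 11.78 in runners. Rpl23a, a large-subunit protein at the exit of the peptide tunnel, read 11.59, 11.48, 11.57 and 11.64 in controls and 11.94, 11.98 and 11.98 in runners. The groups did not overlap for either gene. The differences were 0.55 (1.46-fold, standard error 0.12, adjusted p = 0.00458) for Rps15 and 0.39 (standard error 0.085, adjusted p = 0.0049) for Rpl23a, a call that ended when arrays were scaled by their medians alone (0.45, adjusted p = 0.0818).

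Rpl38, which mouse embryos need for the translation of Hox mRNAs, was called on both of its probes. On the probe ILMN_2594971 the levels were 9.25, 9.09, 8.90 and 9.41 in CTR28 and 9.79, 9.84 and 9.73 in RUN28, a difference of 0.63 (1.54-fold, standard error 0.14, adjusted p = 0.00696). On ILMN_3135931 they were 13.62, 13.27, 13.63 and 13.64 in controls and 14.10, 13.96 and 14.19 in runners (0.55, adjusted p = 0.0217). Both probes separated the groups.

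Other called members of the large subunit included Rpl39, which lines the peptide tunnel (difference 0.58, adjusted p = 0.0201), Rpl41, one of the smallest proteins known (0.52, adjusted p = 0.0398), and Rpl7a (0.59, adjusted p = 0.0435). Rpl39 read 12.04, 11.89, 12.20 and 12.36 in controls and 12.68, 12.64 and 12.80 in runners, and Rpl41 13.73, 13.53, 14.16 and 13.96 in controls and 14.37, 14.18 and 14.54 in runners. For Rpl41, the lowest runner was 14.18 and the highest control 14.16, so the groups lay just apart. Rpl36a, Rpl19, Rpl27, Rpl35, Rpl34, Rpl37a and 1 probe of Rpl31 were called as well, at differences of 0.37 to 0.52.

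In the small subunit, Rps25, which serves initiation on some internal ribosome entry sites, stood at 10.67, 10.33, 10.74 and 10.64 in CTR28 and at 11.07, 11.004 and 11.07 in RUN28 (0.45, adjusted p = 0.0289). Rps27, the paralog of Rps27l, read 12.64, 12.31, 12.73 and 12.73 in controls and 13.07, 13.08 and 13.28 in runners (0.54, adjusted p = 0.0375). Rps16, Rps3, Rps7 and 1 probe of Rps24 were the remaining calls, at 0.38 to 0.61. Arrays of the groups overlapped for Rps3 and Rps7.

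**Figure D2:**
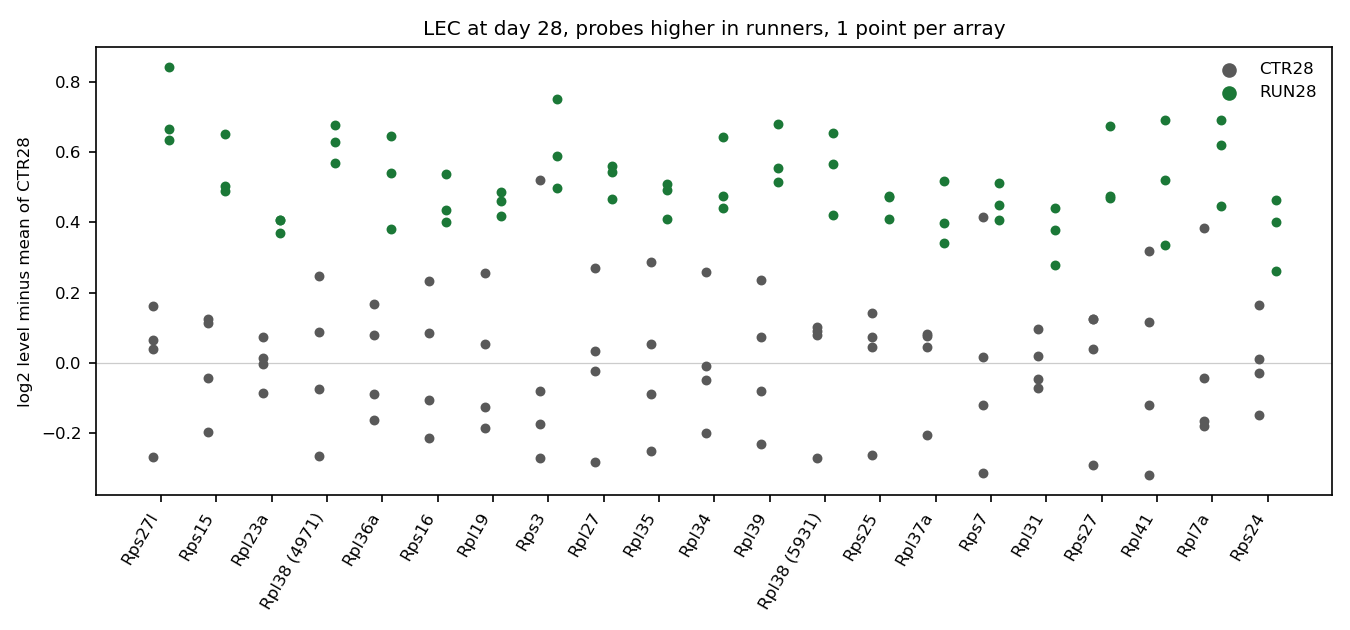
LEC levels at day 28 of the member probes called higher in runners, each as log2 level minus the mean of CTR28, with 1 point per array (4 CTR28, 3 RUN28). For Rps27l the means differ by 0.71, and CTR28 replicate 3 is the control that reaches into the runners for Rps3 and Rps7.

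Several well-known members did not pass. Rps6, the substrate of S6 kinase, read 11.90, 11.78, 12.36 and 11.84 in CTR28 and 12.37, 11.996 and 12.21 in RUN28 (0.22, adjusted p = 0.328), with overlapping groups. The stalk proteins Rplp0 (0.21, adjusted p = 0.187) and Rplp1 (0.04, adjusted p = 0.933), the 5S particle protein Rpl5 (0.17, adjusted p = 0.508), Rpl3 of the peptidyl transferase centre (0.14, adjusted p = 0.653), Rpl22 (0.19, adjusted p = 0.167), Rpl10 (0.16, adjusted p = 0.504) and the X-linked Rps4x (0.20, adjusted p = 0.306) were not called. Rps19, which is mutated in human Diamond-Blackfan anaemia, differed by 0.35 on 1 probe (adjusted p = 0.143) and by 0.04 on the other (adjusted p = 0.794).

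RUN28 and CTR28 did not overlap for 25 members with runners higher, against 13.7% of all probes, and for 1 member with runners lower, again against 13.7% of all probes. That member was the ILMN_2946482 probe of Rpl23, a large-subunit protein that can bind Mdm2, at 13.98, 13.79, 14.29 and 13.60 in controls and 13.40, 13.22 and 13.25 in runners. The difference of -0.63 was not called on the main scale (adjusted p = 0.107), nor after scaling by array medians (-0.52, adjusted p = 0.0589). It was called under quantile normalization (-0.67, adjusted p = 0.0141) and under the neqc background correction (-0.67, adjusted p = 0.0186). The other tested Rpl23 probes differed by 0.28 and 0.12, so the probes of this gene disagreed in sign.

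How many members were called depended on single arrays. The count was 5 without CTR28 replicate 2 or without RUN28 replicate 3, 10 without RUN28 replicate 2, 12 without RUN28 replicate 1 and 33 without CTR28 replicate 3, the array of lowest SD. The share of all probes called was not recorded for these fits, so the counts cannot be set against it. When each array was left out in turn, the member median minus that of all probes ranged from 0.25 to 0.41. Quantile normalization gave 20 called members, against 14.9% of all probes, array medians 22, against 6.6%, and neqc 19, against 14.5%. The selection rule of the study's methods took 19 (19 higher, 0 lower) against 8.07% of all probes. Marker genes of other cells moved too, and their counts are read against the 13.7% of all probes called in either direction. The part of these genes in the ribosomal difference was not tested. The erythrocyte list (1 probe tested, Hba-a1) rose from 11.34 to 11.67 in CTR28 to 12.14 to 12.44 in RUN28 (difference 0.69, adjusted p = 0.039). Of 13 oligodendrocyte probes 2 were higher and 1 lower, with list means of 9.69 to 9.79 in CTR28 and 9.998 to 10.51 in RUN28. Of 3 endothelial probes 1 was lower, with list means of 7.50 to 7.81 and 7.35 to 7.37. Of 7 cortical neuron probes 0 were called and 0 lay above 0 (median -0.13), with means of 8.13 to 8.67 and 8.16 to 8.45. Of 9 astrocyte probes 0 were called and 1 lay above 0 (median -0.09). No striatal or microglial probe was called. Of 6 striatal probes 6 lay above 0 (median 0.49), with list means of 8.49 to 8.77 in CTR28 and 8.70 to 9.21 in RUN28, and of 6 microglial probes 5 did (median 0.32), with list means of 7.91 to 8.46 and 8.39 to 8.46.

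The other genes of protein synthesis in LEC at day 28 were followed through lists of the pathway, whose counts are read against the 13.7% of all probes called in either direction. Mitochondrial ribosomal proteins, which serve a separate ribosome, moved the same way, with 36 of 91 tested probes higher, 0 lower and a median of 0.27. Mrpl11 differed by 0.51 (adjusted p = 0.00141) and Mrpl27 by 0.51 (adjusted p = 0.00157). Among 16 elongation factor probes 0 were called in either direction (median 0.05). Of 43 initiation factor probes 2 were higher, Eif6, which keeps free large subunits apart from small ones (0.34, adjusted p = 0.0268), and Eif2b2, a subunit of the nucleotide exchange factor of eIF2 (0.35, adjusted p = 0.0364).

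Ribosome assembly factors had 3 of 50 probes higher and 2 lower, which like the count of the initiation factors lay below the share of all probes. Nhp2, a protein of the snoRNPs that guide pseudouridylation, differed by 0.54 (adjusted p = 0.00256), Polr1a, the largest subunit of RNA polymerase I, by -0.36 (adjusted p = 0.0132) and Heatr1, which is needed for rRNA transcription, by -0.36 (adjusted p = 0.0159). Of 24 probes of mTORC1 and S6 kinase 1 was higher and 3 were lower. Eif4ebp1, the translation repressor that mTORC1 inactivates, differed by 0.70 (adjusted p = 0.00581), Tsc2, an inhibitor of mTORC1, by -0.53 and -0.47 on its probes (adjusted p = 0.00424 and 0.0131), and Mtor itself by -0.40 (adjusted p = 0.0411). Among 18 probes of other TOP mRNAs 1 was higher, Naca (0.41, adjusted p = 0.0191). Among 9 AMPK subunit probes 1 was higher, Prkab1 (0.33, adjusted p = 0.0291). Ribosomal genes outside the rule had 1 of 6 probes called, Fau, which encodes Rps30 fused to a ubiquitin-like protein (0.54, adjusted p = 0.0172). Of 36 abundant non-ribosomal probes 3 were higher and 0 lower (median 0.07).

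In the DG at the same age, 0 of 63 members were called between RUN28 and CTR28, against 0.332% of all probes. At an unadjusted p under 0.05 there were 9, against 13.3% of all probes, and the selection rule of the methods took 1, against 3.37%. Members above 0 numbered 49 of 63 and the median difference was 0.13, against 0.03 for all probes. Rps15 read 12.46, 12.33 and 12.01 in DG CTR28 and 12.35, 12.40 and 12.49 in RUN28, and Rps27l 10.89, 11.02 and 11.07 against 11.05, 11.07 and 11.12. Both genes had overlapping groups. The smallest p values belonged to Rps19 on ILMN_2754355 (0.36, adjusted p = 0.252) and Rpl34 (0.35, adjusted p = 0.275).

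Whether the response to 28 days of running differed between the tissues was tested as DG effect minus LEC effect. Of 63 members 1 was called, against 3.96% of all probes, and the median of the member differences was -0.19. Relative to all probes it was -0.22 on the main scale, -0.065 under quantile normalization, -0.18 under array medians and -0.070 under neqc. The call was Rpl23a, at 12.78, 12.60 and 12.85 in DG CTR28 and 12.66, 12.69 and 12.54 in DG RUN28, where the groups overlapped. Its effect was -0.11 in DG (adjusted p = 0.73) and 0.39 in LEC, a difference of -0.52 (standard error 0.15, adjusted p = 0.0385). The call ended under quantile normalization (-0.35, adjusted p = 0.115), array medians (-0.48, adjusted p = 0.399) and neqc (-0.35, adjusted p = 0.135). On 2 of those scalings the Rpl23 probe ILMN_2946482 was called instead, at 0.84 under quantile normalization (adjusted p = 0.02) and 0.83 under neqc (adjusted p = 0.0244). A difference between the tissues was not called for the other 20 probes that passed in LEC alone.

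**Figure D3:**
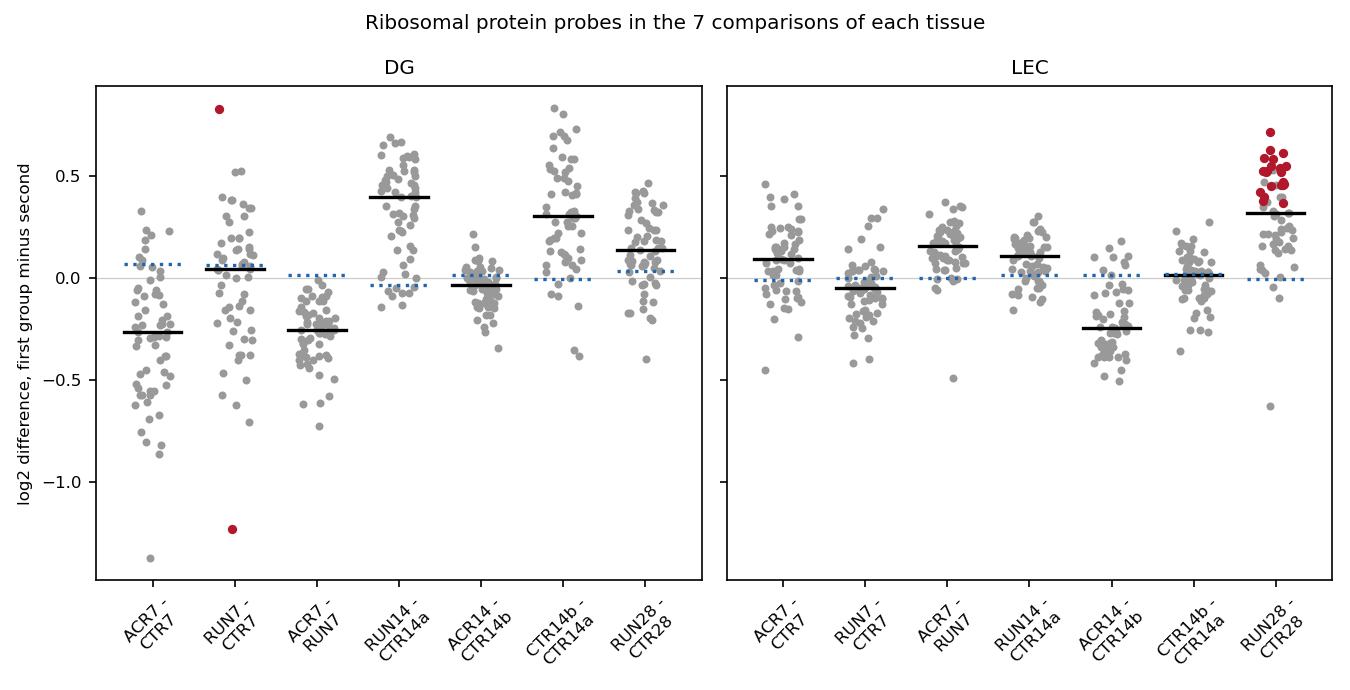
Log2 differences of the ribosomal protein probes in 7 comparisons of each tissue, 1 point per probe, with called probes in red, a solid bar at the member median and a dotted bar at the median of all probes tested. In LEC RUN28 against CTR28 the member median is 0.32, and in DG ACR7 against CTR7 it is -0.27.

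After 7 days in the DG, running had opposite calls on 2 large-subunit genes, Rpl23 and Rpl7a, and the members as a whole did not shift on the main scale. Called members numbered 2 of 63 (1 higher, 1 lower), against 7.46% of all probes, and the median was 0.04, against 0.06 for all probes. The selection rule of the methods took 5 (3 higher, 2 lower), against 8.01% of all probes. Under array medians 14 members were called higher and 1 lower, so this count depended on the scaling. All probes also went mostly higher there, with 1106 called higher and 104 lower (9.56% in either direction). That scaling also moved the median of all probes, to 0.29 in ACR7 and 0.22 in RUN7 against CTR7, and members are best read relative to it. The member median minus that of all probes in RUN7 was -0.02 on the main scale, 0.17 under quantile normalization, 0.20 under array medians and 0.19 under neqc.

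On ILMN_2946482, Rpl23 read 15.38, 14.80 and 15.39 in CTR7, 14.00, 14.14 and 13.74 in RUN7 and 14.17, 14.08 and 13.20 in ACR7. Every control lay above every runner and every AICAR mouse. The intensities before scaling were 27249, 26549 and 25114 in CTR7, 21527, 19613 and 21674 in RUN7 and 21605, 21741 and 21576 in ACR7, again without overlap between controls and either treatment. The RUN7 difference was -1.23 (standard error 0.30, adjusted p = 0.0207) and the ACR7 difference -1.37 (adjusted p = 0.0588). The array SD before scaling was 1.73, 1.83 and 1.70 in CTR7 and 1.92, 1.86 and 1.98 in RUN7. It was 1.88, 1.96 and 2.14 in ACR7, so it was lower in every control. Division by a larger SD lowers a bright probe on the main scale. The part of the array SD in the Rpl23 difference was not tested.

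The size of the Rpl23 difference depended on the scaling, at -0.49 under quantile normalization (adjusted p = 0.0216), -0.52 under array medians (adjusted p = 0.0258) and -0.49 under neqc (adjusted p = 0.0313) in RUN7. The call ended without CTR7 replicate 1 (-1.14), CTR7 replicate 3 (-1.13), RUN7 replicate 1 (-1.25) or RUN7 replicate 3 (-1.12). A second Rpl23 probe, ILMN_2742807, read 13.82, 13.66 and 14.10 in CTR7, 13.29, 13.22 and 13.19 in RUN7 and 13.33, 13.21 and 12.57 in ACR7, with controls above both treatments (-0.62, adjusted p = 0.0651, and -0.82, adjusted p = 0.0887). The third, ILMN_1238227, did not separate the groups (9.75, 9.59 and 9.33 in CTR7, 9.72, 9.45 and 9.69 in RUN7), at 0.06 (adjusted p = 0.824).

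Rpl7a stood at 9.03, 8.89 and 8.42 in CTR7, at 9.97, 9.10 and 9.74 in RUN7 and at 8.84, 8.99 and 9.14 in ACR7. All runners were above all controls, while the AICAR mice overlapped with them. The difference was 0.83 in RUN7 (standard error 0.22, adjusted p = 0.0287) and 0.21 in ACR7 (adjusted p = 0.679). It held under quantile normalization (0.73, adjusted p = 0.0497) and array medians (1.03, adjusted p = 0.0189) and missed the threshold under neqc (0.79, adjusted p = 0.0568). The Rpl7a call ended without replicate 3 of CTR7 (0.65) and on leaving out replicate 1 (0.64) or 3 (0.76) of RUN7.

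In LEC, Rpl23 on ILMN_2946482 read 13.41, 14.41 and 12.96 in CTR7 and 13.43, 14.16 and 14.20 in RUN7 (0.34, adjusted p = 0.585), and the groups overlapped. The DG effect of 7 days of running minus the LEC effect was -1.55 (standard error 0.44, adjusted p = 0.0433), the only call among 63 members, against 2.56% of all probes. It held under quantile normalization (-0.91, adjusted p = 0.027) and neqc (-0.88, adjusted p = 0.0335) and not under array medians (-0.68, adjusted p = 0.0645). Under array medians 25 other member probes were called higher, beside 1146 higher and 73 lower among all probes (9.33% in either direction). That scaling moved the median of all probes to 0.28 in this comparison.

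**Figure D4:**
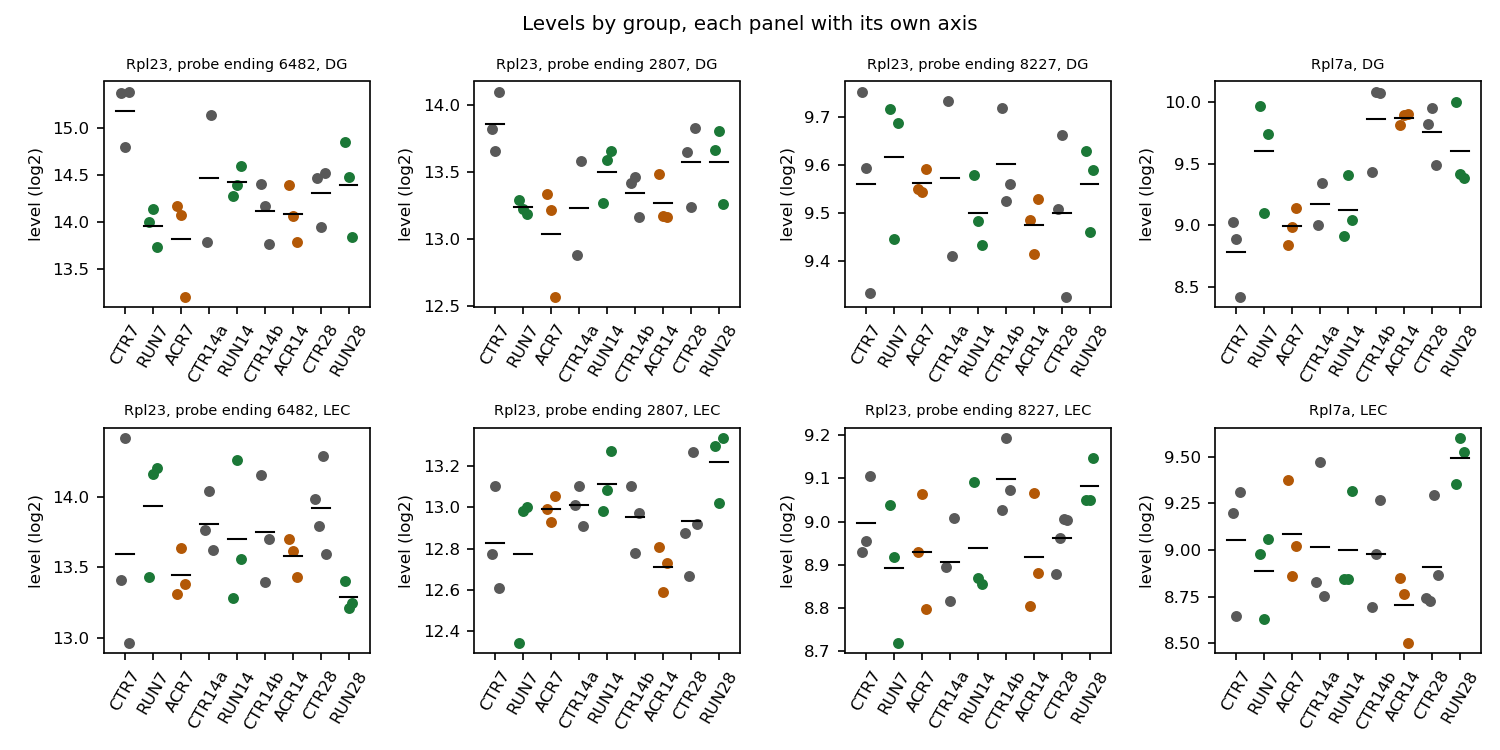
Log2 levels of Rpl23 probes and Rpl7a in every group of DG and LEC, 1 point per array and a bar at the group mean, each panel with its own axis. In DG the Rpl23 probe ILMN_2946482 is at 14.80 to 15.39 in CTR7 and at 13.20 to 14.17 in ACR7 and RUN7.

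The counts of the lists in DG RUN7 are read against the 7.46% of all probes called in either direction. Those of the initiation factors, the mitochondrial ribosomal proteins and the mTORC1 and S6 kinase list lay near that share. Elongation factors had 4 of 16 probes higher and 0 lower, with a median of 0.30. Among them were Eef1d (0.71, adjusted p = 0.00919), of the exchange factor of eEF1A, and the translocase Eef2 (0.64, adjusted p = 0.0394). Of 43 initiation factor probes 3 were higher and 1 lower. Eif3b, a scaffold subunit of eIF3, differed by 0.70 (adjusted p = 0.0119) and Eif4b, a helper of the eIF4A helicase, by 0.72 (adjusted p = 0.0196). Mitochondrial ribosomal proteins had 6 of 91 probes higher and 0 lower (median 0.25), and 2 of 23 mTORC1 and S6 kinase probes were lower, both of Tsc2 (-0.83 and -0.65). Abundant non-ribosomal probes had 2 higher and 4 lower of 35, with a median of -0.30, and included Actb at -2.40.

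AICAR for 7 days in the DG gave 0 called members of 63, against 0.0079% of all probes (1 probe). At an unadjusted p under 0.05 there were 23, against 16.1% of all probes, and the selection rule of the methods took 3, all lower, against 4.33%. Members below 0 numbered 51 and the median was -0.27, against 0.07 for all probes. This shift was not seen under other scalings, where the member median minus that of all probes was -0.04 under quantile normalization, 0.00 under array medians and -0.04 under neqc, in place of -0.34. The member median minus that of all probes was 3.92, 3.85 and 3.75 in CTR7 and 3.61, 3.82 and 2.89 in ACR7, so replicate 3, whose SD was 2.14, stood apart. Without it the difference was -0.16. Abundant non-ribosomal probes had a median difference of -0.52 in the same comparison.

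Against RUN7, all 63 members lay below 0 in ACR7 (median -0.26, against 0.01 for all probes), and 60 lay below the median of all probes under each of the other 3 scalings. Called members numbered 0, against 0% of all probes. The counts were 13 at an unadjusted p under 0.05, against 7.84%, and 5 by the selection rule of the methods, all lower, against 4.66%. Rps15 read 11.49, 11.99 and 11.17 in ACR7 and 12.21, 12.10 and 12.09 in RUN7, with no overlap (-0.58, adjusted p = 0.565). Rps3, which lies at the mRNA entry channel, read 10.08, 10.37 and 9.63 on ILMN_2637639 in ACR7 and 10.88, 10.41 and 10.97 in RUN7 (-0.73, adjusted p = 0.562). Without ACR7 replicate 3 the member median minus that of all probes was -0.08 in place of -0.27. Elongation factors had 0 of 16 probes above 0 (median -0.24), mitochondrial ribosomal proteins 5 of 91 (-0.18) and abundant non-ribosomal genes 3 of 35 (-0.25). Oligodendrocyte markers (10 of 13 above 0, 0.09) and choroid plexus markers (4 of 4, 1.35), which were high in ACR7 replicate 2, went the other way. Astrocyte (1 of 9, -0.08), endothelial (0 of 4, -0.23) and microglial markers (2 of 6, -0.09) lay mostly below 0. Cortical neuron (4 of 7, 0.05), granule neuron (2 of 3, 0.06) and striatal markers (3 of 6, -0.04) were mixed. The part of these lists in the ribosomal difference was not tested.

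At day 14 in the DG, runners had 0 called members of 63, against 0% of all probes. The counts were 25 at an unadjusted p under 0.05, against 6.58%, and 6 by the selection rule of the methods, all higher, against 3.1%. Members above 0 numbered 55, and the median was 0.40 against -0.04. The member median minus that of all probes was 0.43 on the main scale, 0.22 under quantile normalization, 0.24 under array medians and 0.23 under neqc. Mitochondrial ribosomal proteins (74 of 91 probes above 0, median 0.17) and elongation factors (13 of 16, 0.21) also lay mostly above 0. Other TOP mRNAs did not (5 of 18, -0.11). Rpl34 read 11.73 and 11.93 in CTR14a and 12.11, 12.51 and 12.46 in RUN14 (0.53, adjusted p = 0.744). Rps13 read 11.75 and 11.95 in CTR14a and 12.15, 12.72 and 12.75 in RUN14 (0.69, adjusted p = 0.744). The groups did not overlap for either gene, but CTR14a had only 2 arrays, of which replicate 1 was low for the members as a whole (3.18 against 3.74 in replicate 3 and 3.66 to 4.27 in RUN14). Without CTR14a replicate 1 the member median minus that of all probes was 0.16 in place of 0.43, and without replicate 3 it was 0.68.

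The DG control sets of day 14 also differed from each other. CTR14b minus CTR14a had 0 called members, against 0.0474% of all probes, 22 at an unadjusted p under 0.05, against 18.1%, and a median of 0.30 with 56 of 63 members above 0. Mitochondrial ribosomal proteins had 76 of 91 probes above 0 (median 0.28), elongation factors 12 of 16 (0.17) and other TOP mRNAs 8 of 18 (-0.04). Of the cell type markers, oligodendrocytes had 12 of 13 above 0 (0.68), choroid plexus 4 of 4 (2.35) and dentate granule neurons 0 of 3 (-0.61). Astrocytes had 4 of 9 (-0.03), cortical neurons 3 of 7 (-0.06) and microglia 5 of 6 (0.23). No probe of these marker lists was called, and their part in the ribosomal difference was not tested. Rps15 read 11.48 and 11.52 in CTR14a and 12.38, 12.29 and 12.23 in CTR14b (0.80, adjusted p = 0.0739). Under quantile normalization 3 members were called higher, against 0.466% of all probes, with Rps15 (0.84, adjusted p = 0.0475) and Rpl36a (0.60, adjusted p = 0.0462) among them. Set against CTR14b in place of CTR14a, the member median minus that of all probes in RUN14 was 0.04.

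ACR14 in the DG had 0 called members, against 0% of all probes, 1 at an unadjusted p under 0.05, against 3.93%, and 0 by the selection rule of the methods, against 2.11%. The median was -0.03. Rps27l stood at 10.93, 10.92 and 11.21 in ACR14 and at 11.05, 11.92 and 11.12 in CTR14b (-0.34, adjusted p = 1), where CTR14b replicate 5, the array of highest choroid plexus level, was high. Against CTR14a the Rps27l difference had the other sign (0.37, adjusted p = 0.353). The ACR14 effect minus the ACR7 effect in DG had 0 called members, against 0% of all probes, and 9 at an unadjusted p under 0.05, against 11.4%. The median was 0.20. Relative to all probes it was 0.25 on the main scale and -0.01 under quantile normalization.

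In LEC, 7 days of treatment gave no called member. ACR7 had 0, against 1.31% of all probes, 8 at an unadjusted p under 0.05, against 15.5%, and 2 by the selection rule of the methods, both higher, against 3.92%. RUN7 had 0, against 0.515%, 5 at an unadjusted p under 0.05, against 16.1%, and 0 by the selection rule, against 3.53%. Medians were 0.09 in ACR7 and -0.05 in RUN7. Relative to all probes they ranged from 0.016 to 0.16 and from -0.14 to 0.10 when each array was left out in turn, and the RUN7 median turned positive without RUN7 replicate 1. Rps25 was among the 2 members of smallest p in both, with levels of 11.42, 10.87 and 10.68 in CTR7, 10.40, 10.73 and 10.48 in ACR7 and 10.52, 10.69 and 10.57 in RUN7. The control replicate 1 was high and the groups overlapped (-0.45, adjusted p = 0.108, and -0.40, adjusted p = 0.171). Without CTR7 replicate 3 both differences were called (-0.61, adjusted p = 0.0169, and -0.55, adjusted p = 0.0342), whereas without CTR7 replicate 1 they were -0.24 (adjusted p = 0.559) and -0.18 (adjusted p = 0.689). In RUN7 the smallest p belonged to Rpl36a, at 11.15, 10.94 and 11.02 in CTR7 and 10.62, 10.80 and 10.45 in RUN7, without overlap (-0.42, adjusted p = 0.115). ACR7 against RUN7 in LEC had 0 called members, against 0.0736% of all probes, 2 at an unadjusted p under 0.05, against 5.43%, and 0 by the selection rule, against 2.08%. Members above 0 numbered 55 of 62 and the median was 0.16. Without RUN7 replicate 1, whose member median stood 2.94 above that of all probes against 3.63 and 3.47 in the other RUN7 arrays, the member median minus that of all probes was 0.028.

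Day 14 in LEC gave no called member either. In RUN14 the count was 0, against 0% of all probes, with 2 at an unadjusted p under 0.05, against 8.54%, and 2 by the selection rule of the methods, against 3.15% (median 0.11). In ACR14 it was 0, against 0%, with 19 at an unadjusted p under 0.05, against 13.8%, and 7 by the selection rule, all lower, against 3%. In that comparison 53 of 62 members lay below 0, the median was -0.25 against 0.01, and 50 to 54 members lay below the median of all probes under the 4 scalings. Rpl24, a protein of a bridge between the subunits, read 11.79, 11.66 and 11.85 in CTR14b and 11.40, 11.17 and 11.21 in ACR14, without overlap (-0.51, adjusted p = 0.238). Rps21 read 13.34, 12.84 and 13.17 in CTR14b and 12.91, 12.38 and 12.83 in ACR14, with 1 ACR14 array above the lowest control (-0.42, adjusted p = 0.262). Other lists also lay mostly below 0 without a called probe, and their part in the ribosomal difference was not tested. Elongation factors had 1 of 16 probes above 0 (median -0.26), abundant non-ribosomal genes 9 of 36 (-0.20), oligodendrocyte markers 1 of 13 (-0.21) and striatal markers 0 of 6 (-0.13). The LEC control sets of day 14 were close, with 0 called members, against 0.0163% of all probes, 3 at an unadjusted p under 0.05, against 7.69%, and a median of 0.02.

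The ACR14 effect minus the ACR7 effect in LEC had 0 called members, against 0.0572% of all probes, and 23 at an unadjusted p under 0.05, against 16.8%. The median was -0.38 and 52 of 62 members lay below 0. Other lists also lay mostly below 0, with 5 of 36 abundant non-ribosomal probes above 0 (median -0.33), 2 of 16 elongation factor probes (-0.35) and 0 of 6 striatal probes (-0.82). Cortical neuron markers (5 of 7 above 0, 0.48) and astrocyte markers (6 of 9, 0.37) lay mostly above 0. The part of these lists in the ribosomal difference was not tested. Rpl38 on ILMN_2594971 read 9.40, 9.34 and 9.38 in CTR7 and 9.77, 9.78 and 9.71 in ACR7, then 9.73, 9.70 and 9.52 in CTR14b and 9.53, 8.80 and 9.50 in ACR14. AICAR mice were above their controls at day 7 and overlapped with them at day 14, and the difference of effects was -0.76 (adjusted p = 0.125). The ACR7 effect in DG minus that in LEC had 0 called members, against 0.0842% of all probes, and 26 at an unadjusted p under 0.05, against 17.5%. Its median was -0.38. Relative to all probes it was -0.45 on the main scale and -0.02 under array medians. Rps26 differed by -0.77 (adjusted p = 0.0797).

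Between the tissues, from a fit of the 54 arrays that took the mouse as a random effect, 15 of 63 members were higher in DG and 16 were lower, whereas 68.8% of all probes were called, 37% higher and 31.7% lower. The split depended on the scaling. It was 26 higher and 6 lower under quantile normalization and under neqc, where 70.2% and 70.3% of all probes were called. Under array medians it was 53 higher and 3 lower, beside 6658 higher and 2415 lower among all 13067 probes. That scaling moved the median of all probes to 0.14. No member had every DG array above or below every LEC array.

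Rpl4, which extends into the peptide tunnel, was at 9.50 to 10.16 in DG (median 9.92, n = 26) and at 8.82 to 9.52 in LEC (median 9.09, n = 28), a difference of 0.74 (standard error 0.054, adjusted p = 7.32e-16). Rpl22, an RNA-binding large-subunit protein with a paralog, was at 10.87 to 11.65 (median 11.32) and 10.56 to 11.10 (median 10.76), a difference of 0.53 (adjusted p = 1.77e-15). Rps27l was at 10.14 to 11.66 (median 10.80) and 9.56 to 10.70 (median 10.09), a difference of 0.58 (adjusted p = 1.93e-11). The ranges of the tissues overlapped only at their ends for Rpl4 and more widely for the other genes. Rps24 on ILMN_3126986 differed by 0.39 (adjusted p = 2.5e-07).

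Lower in DG on the main scale were Rps9 on ILMN_1214918 (9.84 to 10.92, median 10.46, against 10.33 to 11.79, median 11.19 in LEC), at -0.65 (adjusted p = 2.35e-12), and Rpl35a, at -0.48 (adjusted p = 2.47e-08). The other Rps9 probe differed by 0.11 (adjusted p = 0.0684), so the probes of this small-subunit gene had opposite signs. The same held for Rps3, at -0.41 (adjusted p = 9.54e-06) on ILMN_2637639 and 0.13 (adjusted p = 0.0596) on its other probe, and for Rpl23, at 0.22 (adjusted p = 1.61e-06), -0.14 (adjusted p = 0.0463) and -0.01 on its probes. The stalk protein Rplp1 differed by -0.45 (adjusted p = 0.000115). Rpl31 on ILMN_3152328 differed by -0.33 (adjusted p = 1.8e-05) and turned to 0.05 (adjusted p = 0.382) under array medians.

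**Figure D5:**
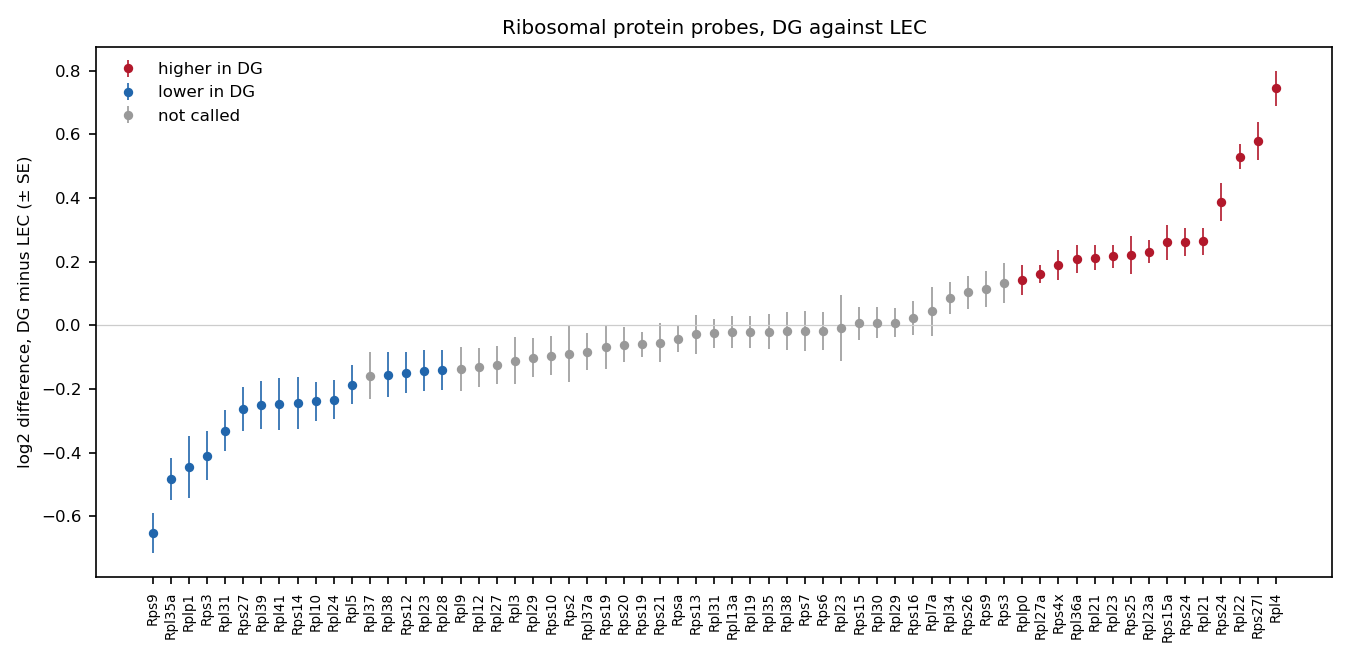
Log2 difference between DG and LEC (± standard error) of each tested ribosomal protein probe over all 54 arrays, ordered by size, with called probes coloured by direction. The differences run from -0.65 for Rps9 on ILMN_1214918 to 0.74 for Rpl4.

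Over the 9 groups of a tissue, the widest spans of group means in DG belonged to Rpl23 on ILMN_2946482 (1.37), Rps3 on ILMN_2637639 (1.14) and Rpl39 (1.10). In LEC they belonged to Rps9 on ILMN_1214918 (0.99) and to both Rps3 probes (0.84 each). These spans are descriptions of the levels and were not tested.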

How the data were processed

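RNA of single mice was hybridized to Illumina MouseRef-8 beadchips, and the replicates are separate mice by their labels. The deposited intensity values were extracted with GenomeStudio 1.6.0, as the submitters' processing notes name it, without normalization between arrays. Probes were tested where the deposited detection p-value was at most 0.02 in all arrays of some group. The authors also deposited a z-score per probe and array, and scores recomputed from the intensities differed from it by at most 5e-10. The authors' files hold no log2 values, so log2 levels were computed here as that z-transformation multiplied by the mean SD of the tissue's arrays (1.86 in DG, 1.75 in LEC).

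For each tissue, limma 3.58.1 (R 4.3.3) fitted a single model to all arrays with 1 mean per group, with Benjamini-Hochberg adjustment over all probes tested. The tissues were compared in a joint fit that took the mouse as a random effect (statmod 1.5.0, estimated correlation -0.062), and version 1.17.8 of data.table read the files. The selection rule of the methods asked for a z-ratio of at least 1.5 in size, a false discovery rate below 0.3, and p below 0.05 both in a pairwise z-test and in an analysis of variance. Alternatives were quantile normalization, array medians, neqc, the deposited scores, other detection filters, 1 probe per gene, fewer groups, the other 14-day controls, the replicate block and each array left out in turn. The number of arrays limits the precision.

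Gene names came from the platform annotation, in which 23978 probes carry a symbol and 1719 none. Probe sequences were not used here, and probes of genes with near-identical paralogs or many pseudogenes, as ribosomal protein genes have, may read more than their named gene. Named were a panel fixed by role, every called member of a comparison or the 4 of smallest p in each direction where over 8 were called, the 2 of smallest p where none was, the members with the widest range over groups, and genes whose probes disagreed in sign where 1 was called. Levels of different probes were not ranked. The members and gene lists were chosen with earlier results of these data known, and other called members are named for completeness.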

Additional observations from a re-analysis of the deposited data

Results flagged for a closer look

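The 7-day running effect on the Rpl23 probe ILMN_2946482 differed between the tissues by -1.55 on the log2 scale (DG effect minus LEC effect), by a test of the difference itself in limma (adjusted p = 0.0433). Controls lay above runners in 3 of 3 DG arrays and overlapped with them in LEC. The difference was -0.91 under quantile normalization (adjusted p = 0.027), -0.88 under neqc (adjusted p = 0.0335) and -0.68 under array medians (adjusted p = 0.0645), where the call ended. The 28-day running effect on Rpl23a differed by -0.52 (adjusted p = 0.0385), with all 3 LEC runners above all 4 LEC controls and overlapping groups in DG. Its call ended under quantile normalization (-0.35, adjusted p = 0.115), neqc (-0.35, adjusted p = 0.135) and array medians (-0.48, adjusted p = 0.399).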

How the results depend on the processing

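Over the members named, 1113 values under an alternative kept their direction and their side of the threshold, 35 lost the call, 9 gained it and 3 changed sign. Many of the 1113 were of members not called to begin with, which only had to stay uncalled. Others had little room to move, since the deposited scores equal the recomputed ones to within 5e-10. The fits between the tissues also dropped only 1 of 54 arrays at a time. The tally is therefore no measure of robustness. The sign changes were Rpl31 (ILMN_3152328) between the tissues under array medians (0.053) and, with the other set's controls, Rps27l in DG ACR14 (0.37) and in the DG ACR14 effect minus the ACR7 effect (0.042). Medians below are member medians minus those of all probes. Under quantile normalization the called members were 5 in DG RUN7 (against 6.24% of all probes), 3 between the DG control sets (0.466%) and 3 in the RUN7 effect between tissues (2.79%). Its medians were -0.040 in DG ACR7, -0.0069 in DG ACR14 minus ACR7, -0.088 in the ACR7 effect and 0.25 in the RUN7 effect between tissues. Under array medians the called members were 15 in DG RUN7 (against 9.56% of all probes), 56 between DG and LEC (69.4%), 25 in the RUN7 effect (9.33%) and 0 in the RUN28 effect (0.39%). Medians under that scaling were 0.00089 in DG ACR7, -0.062 in DG ACR14 minus ACR7, -0.024 in the ACR7 effect and 0.38 in the RUN7 effect. That scaling moved the median of all probes to -0.12 in DG RUN14, -0.31 in DG ACR14 minus ACR7 and 0.32 in the ACR7 effect between tissues. Under neqc the medians of DG ACR7, DG ACR14 minus ACR7 and the ACR7 effect were -0.041, -0.0077 and -0.091. With no detection filter 1 member was called in DG RUN7 and 0 in the RUN7 effect, and the ACR7 effect median was -0.17. Fitted on the arrays of the compared groups alone, 1 was called in DG RUN7, 0 in the RUN7 effect and 0 in the RUN28 effect, and with days 7 and 14 alone 0 in the RUN7 effect. The other set's controls gave 1 call and a median of 0.039 in DG RUN14, and medians of 0.26 in DG ACR14 and 0.70 in DG ACR14 minus ACR7. For the fits without a detection filter, on fewer groups or with the other set's controls, the share of all probes called was not recorded. Their counts of members cannot be set against it. The selection rule of the methods took 3 members in DG ACR7, 5 in DG RUN7, 5 in DG ACR7 against RUN7, 6 in DG RUN14, 1 in DG RUN28, 2 in LEC ACR7, 2 in LEC RUN14 and 7 in LEC ACR14. The causes were not tested.

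Same-numbered arrays of different groups did not deviate together (mean r -0.03 in DG and 0.00 in LEC), so the numbers do not pair the mice. With the replicate block 1 member was called in DG RUN7 and 17 in LEC RUN28. For ACR14 against CTR14b no block could be fitted, since these groups share no numbers, and the block was not run between the control sets or for differences of effects. Leaving out each array in turn gave 0 to 3 called members in DG ACR7, 0 to 4 in DG RUN7, 0 to 1 in LEC ACR7, 0 to 1 in LEC RUN7, 5 to 33 in LEC RUN28, 0 to 1 in LEC ACR14 minus ACR7, 0 to 1 in the ACR7 effect, 0 to 2 in the RUN7 effect and 0 to 3 in the RUN28 effect, and medians of 0.16 to 0.68 in DG RUN14 and 0.13 to 0.56 between the DG control sets. For the replicate block and for the fits without 1 array, the share of all probes called was not recorded, so these counts cannot be set against it. Rpl23 kept its sign at -1.96 to -1.24 in the RUN7 effect, and Rpl23a at -0.58 to -0.46 in the RUN28 effect, but 8 of 12 and 7 of 13 of these fits lost the call. Leaving out a DG CTR14a array left 1, assumed to vary like the other groups, and fits over both tissues kept the same correlation within mouse. The RUN28 effect between tissues was added after seeing the data.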
